A study of Saccharomyces cerevisiae with 13 samples.

Results

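The 26S proteasome of budding yeast was followed through 35 of its genes: 7 subunits of the alpha ring, 7 of the beta ring, the 6 RPT ATPases, 13 RPN subunits, the assembly factor UMP1 and the transcriptional regulator RPN4. The genes were taken by their symbols as parts of the complex, a rule that uses no measured value, although the complex was picked with earlier results of these data known. They are 35 of the 5446 protein-coding genes measured. Each of the 35 was read by 1 probe set, a group of short probes on the array, and levels are therefore compared between strains and not between genes. The values are log2 of the signals that the authors deposited.

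Proteins marked with ubiquitin are degraded by the proteasome. Its core is a barrel of 4 rings, in which the outer alpha rings gate the entrance and the inner beta rings hold the cutting sites. The RPT ATPases form the base that unfolds substrates and threads them into the barrel, and the RPN subunits carry the ubiquitin receptors, the scaffold and the lid, which removes the ubiquitin chain. In yeast the genes of the complex are largely under 1 activator, Rpn4, which binds a short promoter element called PACE and is itself a short-lived substrate of the proteasome.

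Transcript levels come from 13 Affymetrix yeast 2.0 arrays. The study's SC (single-copy) group holds 2 arrays each of ΔtM(CAU), ΔtL(GAG)G and ΔtR(CCU)J, of which the last 2 strains lack the single gene of their tRNA family, while the initiator methionine tRNA has several gene copies. The label of the first names no gene copy, and the only deletion of that anticodon among the expression strains of the study is in the initiator methionine tRNA gene. ΔtR(UCU)M2 and ΔtH(GUG)G1, also with 2 arrays each, make up the MC group of tRNA families with several gene copies. Wild type (WT) has 3 arrays. All are haploid cells labelled with the Y5565 background, which by the study's methods is MATα with alterations at can1, mfα1, lyp1, ura3 and leu2. In each deletion strain a hygromycin resistance cassette replaced 1 tRNA gene, and several colonies per strain were checked by PCR. The WT strain carried the same cassette beside the tL(CAA)L3 locus. Cultures were in rich medium (YPD) at 30 °C and were taken in mid log phase. The arrays of a strain are labelled as biological replicates, and nothing says whether they came from separate transformants.

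The strains differed in a gene outside the tRNA loci. MF(ALPHA)1, an alpha pheromone gene that the stated genotype disrupts, had log2 signals between 12.44 and 12.80 on the 6 SC arrays, between 2.79 and 4.53 on the 4 MC arrays and between 2.54 and 4.89 on the 3 WT arrays. LEU2, which replaces it in that genotype, lay between 12.12 and 12.86 on the SC arrays, between 12.96 and 13.37 on the MC arrays and between 12.99 and 13.30 on the WT arrays. An SC strain therefore differs from an MC or WT strain in this background feature as well as in its tRNA gene, and the contributions of each to the values below cannot be told apart. The other MATα markers STE3, MF(ALPHA)2 and SAG1 were at 10.16 or above on every array, the 6 MATa markers did not exceed 7.08, and CAN1, LYP1 and URA3 did not exceed 4.15. The array background, read from probe sets for S. pombe genes as their 95th percentile, lay between 3.69 and 4.43 on the log2 scale, and all 35 proteasome genes averaged between 10.10 and 12.06, well above it. The median gene signal was 539 to 626 on the SC arrays, 491 to 552 on the MC arrays and 512 to 536 on the WT arrays. The 2 ΔtR(CCU)J arrays had the highest medians of the 13, at 9.29 and 9.19 on the log2 scale. In the SC minus MC comparison the median difference of all genes was 0.11, and in ΔtR(CCU)J minus WT it was 0.17, so the shifts of the proteasome genes are given beside these values.

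First, the SC strains were compared with the MC strains. All 35 proteasome genes had a positive difference (25 of them after median centring of the arrays), with a median of 0.23, against 0.11 over all genes and -0.02 over the 1224 other genes of the same brightness. In such bulk samples, a higher level in every cell and a higher level in some of the cells cannot be told apart. The smallest difference was that of the beta subunit PUP3, at 0.00, and the largest that of RPN4, at 0.44. None passed the test after Benjamini-Hochberg adjustment over all genes in the limma fit, where 0.165% of all genes were called higher and 0.0551% lower. RPN4 came closest, with 0.44 ± 0.08 (SE) and an adjusted p of 0.0505. It was followed by RPN12 at 0.36 ± 0.07 (adjusted p = 0.0529), RPT5 at 0.40 ± 0.08 (adjusted p = 0.0532) and UMP1 at 0.36 ± 0.08 (adjusted p = 0.0555). These SEs and p-values rest on the spread between arrays of the same strain. They do not cover differences among the strains within the SC or the MC group. With the strain means as units, 0 of the 35 genes and 4 of all genes were called. At an unadjusted p under 0.05, 20 of the 35 were higher in the SC strains and 0 lower, against 1136 and 481 of all 5446 genes. This comparison depended on the settings: between 0 and 11 of the 35 passed under the alternatives tried, and the genes past the threshold most often were RPN12 in 8, RPN4 in 7 and RPT5 in 7 of 29 alternatives. Leaving out 1 array gave 6 calls without ΔtH(GUG)G1 replicate 2, 5 without WT replicate 2 and 1 without ΔtR(CCU)J replicate 2. The calls over all 5446 genes rose as well, to 649, 140 and 65 in these fits, against 12 in the main fit. The setting with 11 calls among the 35 called 575 of all genes.

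**Figure D1:**
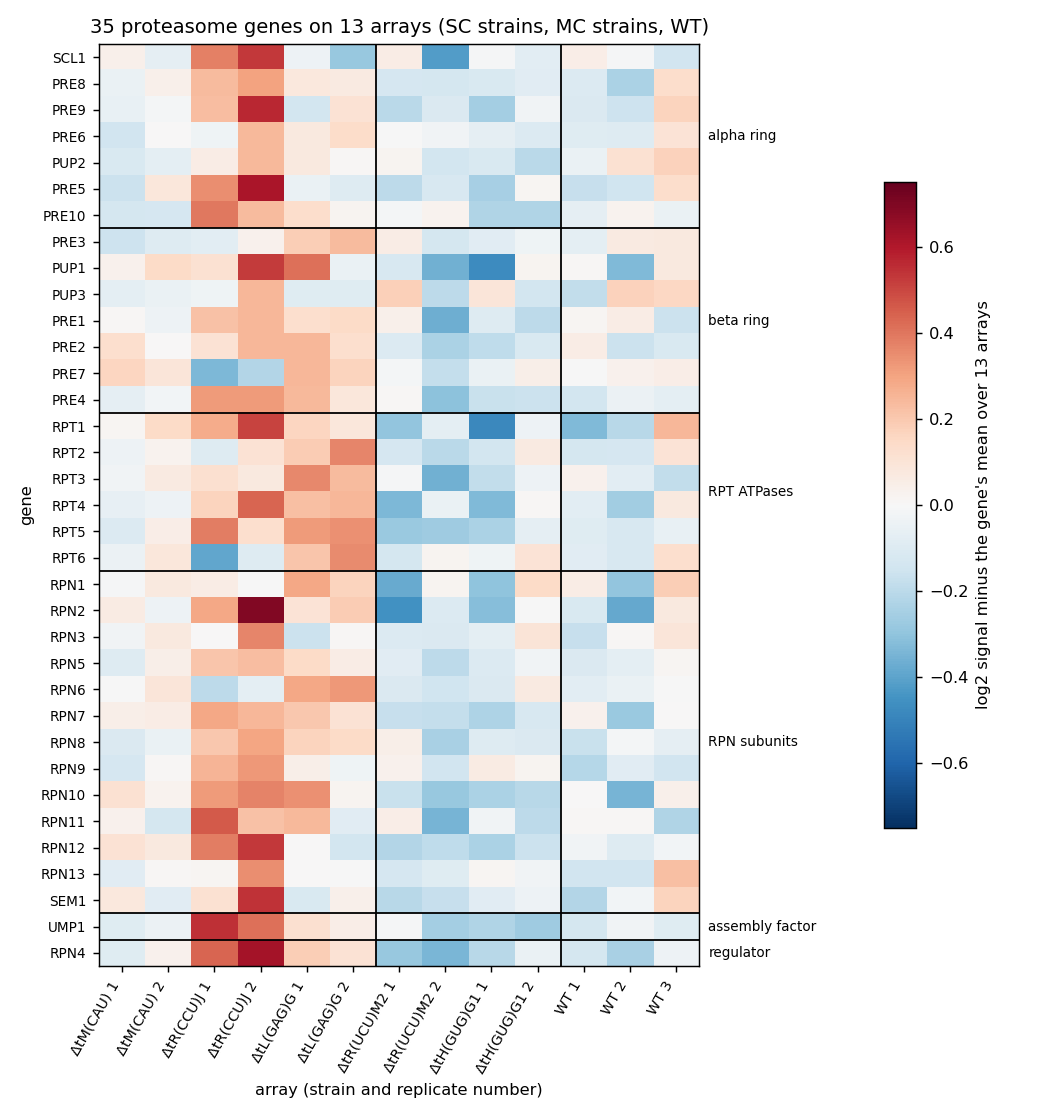
The log2 signal of each of the 35 genes (rows, by subcomplex) on each of the 13 arrays (columns, SC strains on the left, then MC strains, then WT), as the difference from the gene's own mean over the 13 arrays. Both ΔtR(CCU)J columns are mostly red and the MC columns mostly blue, while PRE7, RPT6 and RPN6 are blue in ΔtR(CCU)J and red in ΔtL(GAG)G.

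Averaged over the 35 genes, each taken as its distance from its own mean over the 13 arrays, the ΔtM(CAU) arrays were at -0.03 and 0.01, the ΔtR(CCU)J arrays at 0.16 and 0.30 and the ΔtL(GAG)G arrays at 0.14 and 0.09. The MC arrays were at -0.11 and -0.18 (ΔtR(UCU)M2) and at -0.16 and -0.06 (ΔtH(GUG)G1), and the WT arrays at -0.08, -0.10 and 0.03. The third WT array was therefore above both of the others, and above all MC arrays and both ΔtM(CAU) arrays.

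The spread over arrays shows how far the groups were separated. Every SC array lay above every MC array for 6 of the 35 genes (17.1%), against 5.47% of all genes: the alpha subunit PRE8, the beta subunit PRE2, the ATPase RPT1, and RPN7, RPN10 and RPN12. For RPN12, a subunit of the lid, the 6 SC arrays had a lowest log2 signal of 10.95, a median of 11.18 and a highest of 11.62, and the 4 MC arrays read 10.87 and 10.89 (ΔtR(UCU)M2) and 10.85 and 10.93 (ΔtH(GUG)G1). The gap between the groups was narrow, because ΔtL(GAG)G was close to the MC strains for this gene. For PRE2, the subunit with the chymotrypsin-like cutting site, the SC arrays ran from 11.35 through a median of 11.47 to 11.59, while the MC arrays were at 11.24, 11.11, 11.16 and 11.23. The PRE2 difference was 0.30 ± 0.08 (adjusted p = 0.0673). For RPN10, a ubiquitin receptor, the SC arrays ran from 10.91 through 11.11 to 11.27 and the MC arrays from 10.61 to 10.73, with a median of 10.67. Of the 35, RPN7, a lid subunit, was the 1 gene with all 6 SC arrays above all 3 WT arrays (3.38% of all genes), with SC arrays between 11.21 and 11.46 and WT arrays between 10.89 and 11.20.

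Every subcomplex had a positive median in the SC minus MC comparison, also the alpha ring, whose median was the lowest. The RPT ATPases had the highest median among the groups of subunits, 0.31, with values from 0.03 in RPT6 to 0.42 in RPT1. The beta ring followed with 0.27, from 0.00 in PUP3 to 0.43 in PUP1, which carries the trypsin-like site. The 13 RPN subunits had a median of 0.22, from 0.09 in RPN9 to 0.44 in RPN2, a scaffold of the base. The alpha ring had a median of 0.20 and the narrowest range, from 0.10 in PRE6 to 0.26 in PRE9. Among the RPN subunits, RPN1, RPN2, RPN10 and RPN13, which sit at the base or receive ubiquitin, had a median of 0.32 and the 9 lid subunits one of 0.21. These medians are descriptions, and no difference between subcomplexes was tested.

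Within each subcomplex the genes with the smallest and the largest p show how the arrays were spread. In the alpha ring, PRE10 had SC arrays from 11.31 through a median of 11.52 to 11.84 and MC arrays at 11.43, 11.47, 11.22 and 11.22, so that the groups overlapped (0.20 ± 0.07, adjusted p = 0.106). PRE8 had SC arrays from 11.23 through 11.35 to 11.58 and MC arrays at 11.16, 11.15, 11.16 and 11.20, without overlap (0.23 ± 0.09, adjusted p = 0.117). PRE6 had SC arrays from 11.92 through 12.10 to 12.31 and MC arrays at 12.06, 12.04, 11.99 and 11.96, inside the SC range (0.10 ± 0.09, adjusted p = 0.462). Of these 3 genes, PRE8 alone had its MC arrays below all SC arrays.

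In the beta ring, PRE4, a subunit without a cutting site, had SC arrays from 11.09 through 11.32 to 11.47 and MC arrays at 11.16, 10.85, 10.99 and 10.99, with 1 MC array inside the SC range (0.30 ± 0.08, adjusted p = 0.0674). PUP3 had SC arrays from 11.66 through 11.70 to 12.01 and MC arrays at 11.94, 11.56, 11.85 and 11.62, with 2 MC arrays inside the SC range and 2 below it (0.00 ± 0.12, adjusted p = 0.996). The sign of the PUP3 difference turned in 8 of 29 alternatives. Among the ATPases, RPT5 had SC arrays from 10.61 through 10.93 to 11.09 and MC arrays at 10.43, 10.44, 10.47 and 10.64. RPT4 had SC arrays from 11.05 through 11.31 to 11.55 and MC arrays at 10.78, 11.07, 10.78 and 11.12 (0.34 ± 0.11, adjusted p = 0.0868). For both ATPases the replicate 2 array of ΔtH(GUG)G1 was the highest MC array and lay inside the SC range. RPT6 had SC arrays from 11.09 through 11.51 to 11.84 and MC arrays at 11.35, 11.50, 11.45 and 11.59 (0.03 ± 0.10, adjusted p = 0.854), and RPN3, a lid subunit, had SC arrays from 10.81 through 10.98 to 11.35 and MC arrays at 10.87, 10.87, 10.90 and 11.07 (0.09 ± 0.10, adjusted p = 0.558). For RPT6 and RPN3 all MC arrays lay inside the SC range.

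**Figure D2:**
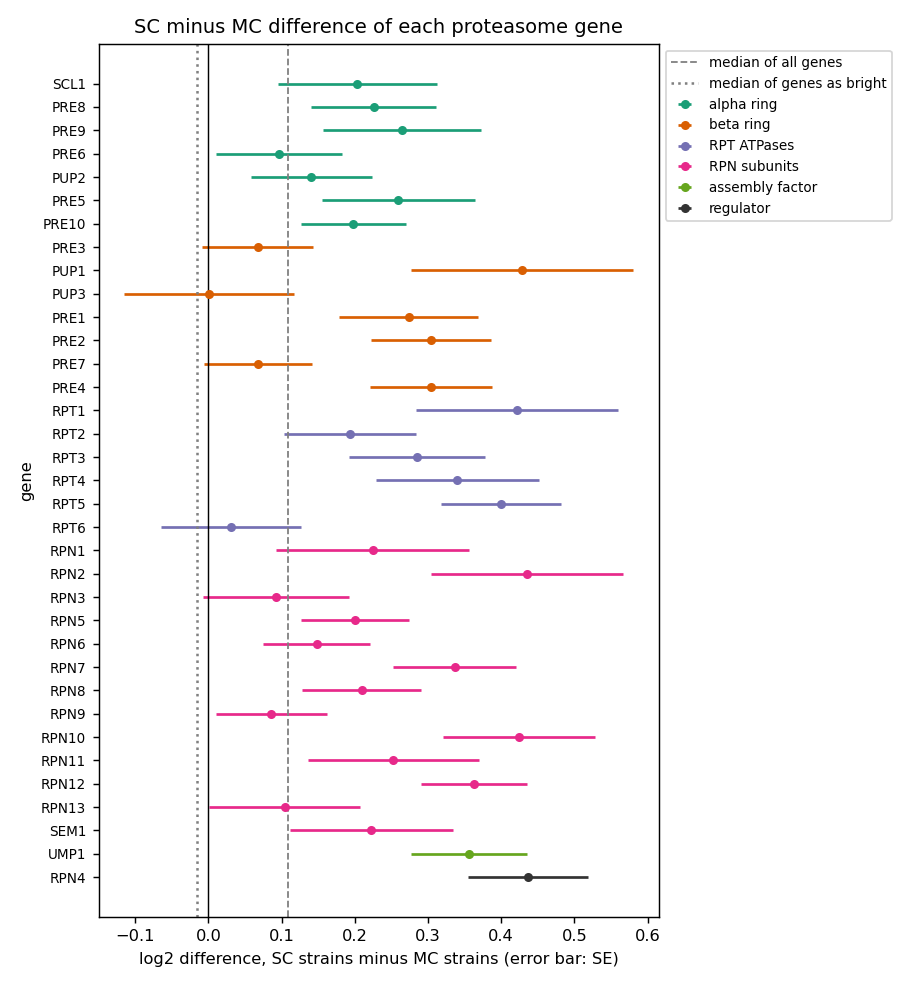
The difference in log2 signal between the SC strains and the MC strains for each of the 35 genes, with its standard error from the limma fit, coloured by subcomplex. All 35 points lie at or right of 0, 27 of them right of the median of all genes at 0.11 (dashed line), and the dotted line marks the median of -0.02 over genes as bright.

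Among single strains, the largest median difference from WT was that of ΔtR(CCU)J, the strain without its single arginine tRNA gene of anticodon CCU. Of the 35 genes 31 were positive (25 after median centring), with a median of 0.34, against 0.17 over all genes and -0.03 over the genes as bright. RPN4, UMP1, RPN12 and RPN9 passed the test and were higher, which is 4 of 35 genes where 6.63% of all genes were called higher. No proteasome gene was called lower, where 1.93% of all genes were. At an unadjusted p under 0.05, 20 of the 35 were higher and 1 was lower, against 1238 and 489 of all 5446 genes. Both ΔtR(CCU)J arrays lay above all 3 WT arrays for 23 of the 35 genes, where 31.6% of all genes had this pattern. The 4 calls depended on single arrays. When the strain's own replicate 1 was left out 0 were made, and when its replicate 2 was left out 1 was made. Leaving out replicate 1 or replicate 2 of WT left 2 each time. The calls over all genes in these fits are not given here.

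RPN4, the activator gene, read 10.53 and 10.72 in ΔtR(CCU)J, against 9.96, 9.86 and 10.06 in WT. Both ΔtR(CCU)J arrays were the highest of the 13 for this gene, and the difference was 0.67 ± 0.12 (adjusted p = 0.0180), a 1.59-fold higher signal. It was past the threshold in 17 of 21 alternatives, over which its adjusted p ranged from 0.0124 to 0.145. RPN4 was at 10.28 and 10.21 in ΔtL(GAG)G, also above all WT arrays, and that difference of 0.28 ± 0.12 did not pass (adjusted p = 0.601). In ΔtM(CAU) it was at 10.01 and 10.13, within or just above the WT range. In ΔtR(UCU)M2 it was at 9.81 and 9.76, below every WT array, and in ΔtH(GUG)G1 at 9.89 and 10.05, inside the WT range.

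UMP1, whose product is a chaperone of core assembly that is degraded as the barrel closes, read 11.56 and 11.43 in ΔtR(CCU)J, against 10.89, 10.99 and 10.93 in WT. The difference was 0.56 ± 0.11 (adjusted p = 0.0252), a 1.48-fold higher signal, and it was past the threshold in 17 of 21 alternatives. UMP1 was also above every WT array in ΔtL(GAG)G, at 11.14 and 11.07, by 0.17 ± 0.11 (adjusted p = 0.683). Its signals of 10.92 and 10.97 in ΔtM(CAU) lay within the WT range. Both ΔtH(GUG)G1 arrays, at 10.79 and 10.75, lay below the WT arrays, and the ΔtR(UCU)M2 arrays, at 11.01 and 10.76, lay on either side of them.

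RPN12 was at 11.47 and 11.62 in ΔtR(CCU)J, against 11.06, 10.99 and 11.06 in WT, a difference of 0.51 ± 0.10 (adjusted p = 0.0258). RPN9, another lid subunit, was at 11.52 and 11.60 in ΔtR(CCU)J, against 11.06, 11.18 and 11.12 in WT, a difference of 0.44 ± 0.11 (adjusted p = 0.0384). For both genes the ΔtR(CCU)J arrays were the highest of all 13. RPN12 was past the threshold in 16 of 21 alternatives and RPN9 in 9. RPN9 stood out in that it was also the highest of the 35 differences in both MC strains, at 0.19 in ΔtH(GUG)G1, against 0.09 for ΔtR(UCU)M2. The 2 ΔtH(GUG)G1 arrays read 11.33 and 11.29, above every WT array, as 5.14% of all genes did.

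Several ΔtR(CCU)J differences were as large as the called ones but had a wider spread. RPN2 was at 11.57 and 11.97 in ΔtR(CCU)J, against 11.17, 10.89 and 11.35 in WT, a difference of 0.63 ± 0.19 (adjusted p = 0.0629). The alpha subunit PRE5 was at 11.48 and 11.75, against 10.96, 10.99 and 11.27 in WT, a difference of 0.54 ± 0.15 (adjusted p = 0.0515). All 7 alpha subunits were positive in this strain as deposited, from 0.07 in PUP2 to 0.54 in PRE5, with a median of 0.35. Over all genes 67.1% were positive, with a median of 0.17. The sign of the PRE6 difference turned in 2 of 21 alternatives. The RPN subunits had a median of 0.35 as well, the RPT ATPases one of 0.26 and the beta ring one of 0.25.

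In contrast, 4 of the 35 genes had negative values in ΔtR(CCU)J. PRE7, a beta subunit without a cutting site, read 10.92 and 11.03 in ΔtR(CCU)J, against 11.25, 11.29 and 11.31 in WT. It was the only proteasome gene whose ΔtR(CCU)J arrays both lay below every WT array, as 12.5% of all genes did, by -0.31 ± 0.10 (adjusted p = 0.0894). RPT6, the ATPase next in this order, read 11.09 and 11.39, against 11.40, 11.37 and 11.61 in WT, so that its arrays overlapped (-0.22 ± 0.14, adjusted p = 0.30). The lid subunit RPN6 was at 10.88 and 11.01, against a median of 11.03 and a highest value of 11.08 in WT (-0.09 ± 0.10, adjusted p = 0.575), and the beta subunit PRE3, which holds the caspase-like site, had a difference of -0.05 ± 0.11.

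**Figure D3:**
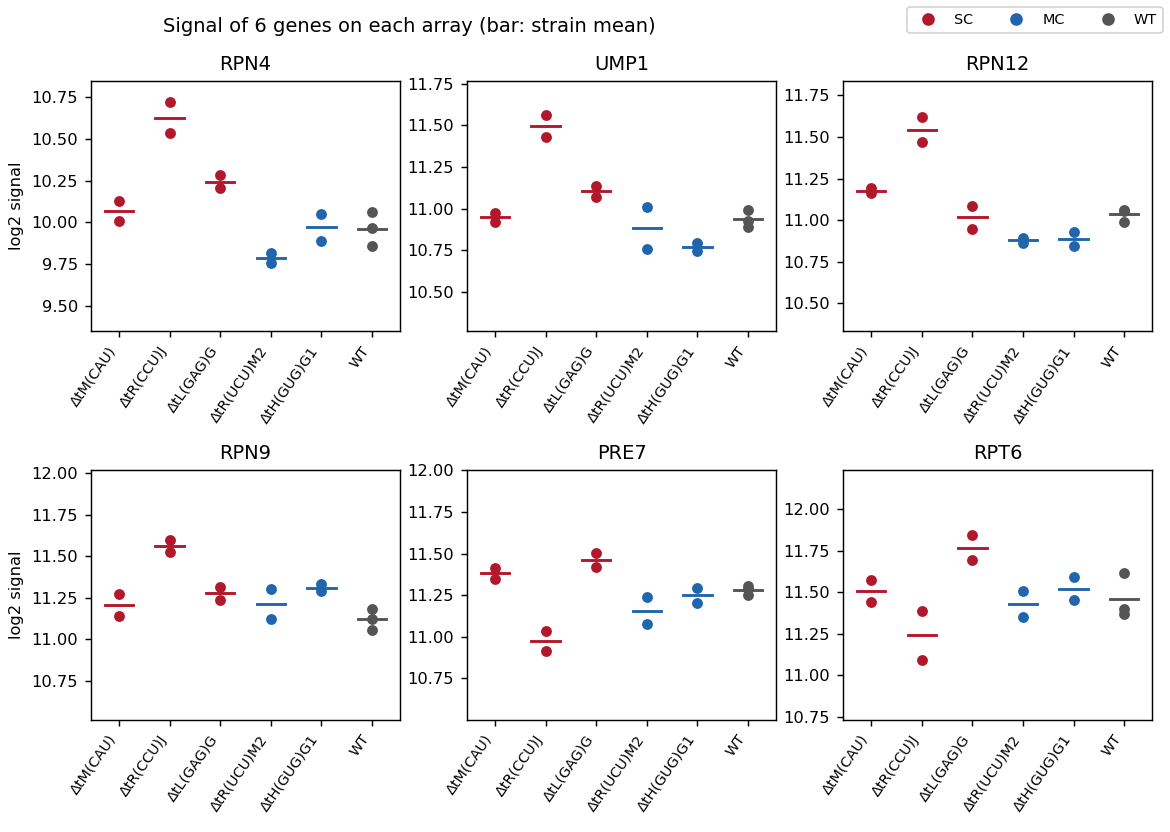
The log2 signal of RPN4, UMP1, RPN12, RPN9, PRE7 and RPT6 on each array (points), by strain, with the strain mean as a bar, and SC strains to the left of the MC strains and WT. The ΔtR(CCU)J arrays are the highest for the first 4 genes and hold the lowest value for PRE7, at 10.92, and for RPT6, at 11.09.

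ΔtL(GAG)G is the strain without its single leucine tRNA gene of anticodon GAG. In it 28 of the 35 genes were positive, with a median of 0.18, against 0.05 over all genes and 0.04 over those as bright. None passed the test, where 0.0367% of all genes were called higher and 0.0184% lower. At an unadjusted p under 0.05, 6 were higher and 0 lower, against 230 and 202 of all genes, and 4 of the 6 were RPT ATPases. Both ΔtL(GAG)G arrays lay above all WT arrays for 18 of the 35 genes, against 15.7% of all genes. The 6 RPT ATPases were all positive, where 58% of all genes were, from 0.22 in RPT1 to 0.42 in RPT5, with a median of 0.33. RPT5 read 11.03 and 11.05 in ΔtL(GAG)G, against 10.62, 10.59 and 10.65 in WT, a difference of 0.42 ± 0.12 (adjusted p = 0.404). RPT6 read 11.69 and 11.84, above the WT values of 11.40, 11.37 and 11.61, and RPN6 read 11.37 and 11.41, above the highest WT value of 11.08. The alpha ring was close to WT, with a median of 0.02 and values from -0.13 in SCL1 to 0.14 in PRE8.

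In ΔtM(CAU) 28 of the 35 genes were positive as deposited. Their median was 0.05, below the 0.07 of all genes and above the 0.00 of those as bright. It turned to -0.04 when each array was centred on its median, against -0.02 over all genes. No proteasome gene was called, where 0.0367% of all genes were called higher and 0% lower, and none had an unadjusted p under 0.05. The values ran from -0.17 in PUP2, an alpha subunit, to 0.18 in RPT1. Both arrays lay above every WT array for PRE7, RPN6, RPN7 and RPN12, which is 4 of 35 genes against 13.6% of all genes, and below every WT array for PUP2, PRE10 and PRE3, against 6.04% of all genes.

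In the MC strains most proteasome genes were slightly below WT. Of the 35 genes, 3 were positive in ΔtR(UCU)M2, with a median of -0.10, against -0.03 over all genes and 0.00 over those as bright. For ΔtH(GUG)G1 this count was 7, with a median of -0.06, against -0.01 over all genes and 0.00 over those as bright. No proteasome gene was called in either strain, where 0% of all genes were called in either direction, and none had an unadjusted p under 0.05. Both ΔtR(UCU)M2 arrays lay below all WT arrays for PRE7, RPT5, RPN6, RPN12 and RPN4 (5 of 35, against 5.93% of all genes), and both ΔtH(GUG)G1 arrays did so for PUP2, PRE10, PRE4, RPN12 and UMP1 (5 of 35, against 4.46%). RPN12 was in both lists and was the only gene of the 35 with all 4 MC arrays below all 3 WT arrays. Over all genes 1.18% had this pattern, so 1 of 35 is near that share. The size of these shifts depended on single arrays. The ΔtR(UCU)M2 median was -0.05 without WT replicate 3, -0.15 without its own replicate 1 and -0.06 without its own replicate 2. The ΔtH(GUG)G1 median was -0.01 without WT replicate 3 and -0.01 without its own replicate 1.

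**Figure D4:**
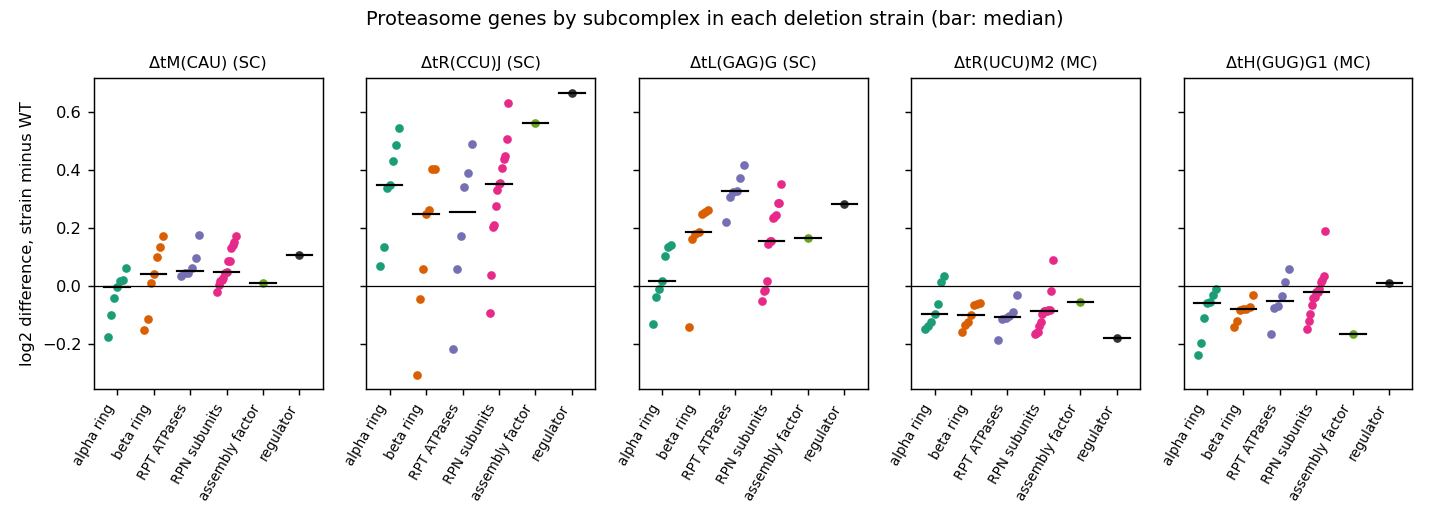
The difference in log2 signal from WT of each of the 35 genes in the 5 deletion strains (panels), grouped by subcomplex, with a bar at each median. The alpha ring is high in ΔtR(CCU)J, with a median of 0.35, and near 0 in ΔtL(GAG)G, with 0.02, while the RPT ATPases have medians of 0.26 and 0.33 in these strains, and the MC panels lie mostly below 0.

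With the strains pooled, the SC minus WT difference was positive for 31 of the 35 genes (median 0.18, against 0.10 over all genes) and the MC minus WT difference for 2, RPN9 and RPT6 (median -0.08, against -0.01). None was called in either comparison, where 0.0551% of all genes were called higher and 0% lower in the SC strains, and 0% in each direction in the MC strains. These comparisons use the same WT arrays. Testing for any difference among the 6 strains called 0 of the 35 genes, where 0.422% of all genes were called. RPN4 had the smallest adjusted p in that test, 0.0674, followed by RPN12 with 0.0824 and UMP1 with 0.0924.

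ΔtR(CCU)J and ΔtL(GAG)G were then compared with each other, a comparison chosen after their values had been seen. Relative to ΔtL(GAG)G, 25 of the 35 genes were higher in ΔtR(CCU)J, with a median of 0.15, against 0.11 over all genes. RPN12 was called higher, which is 1 of 35 genes where 1.78% of all genes were called higher, and no proteasome gene was called lower, where 0.698% were. RPN12 was at 11.47 and 11.62 in ΔtR(CCU)J and at 11.09 and 10.95 in ΔtL(GAG)G (0.52 ± 0.11, adjusted p = 0.0474). This call lay at the edge of the threshold and was past it in 5 of 21 alternatives, and it was lost whichever of the 13 arrays was left out. With the replicate number as a block, which pairs the deletion strains, it was also lost (adjusted p = 0.0639, from 0.0215 to 0.265 over the 21 alternatives). The largest negative values were those of RPT6 (-0.53 ± 0.15, adjusted p = 0.0954), PRE7 (-0.49 ± 0.11, adjusted p = 0.0587) and RPN6 (-0.44 ± 0.11, adjusted p = 0.0746). The largest positive values were in the alpha ring, at 0.62 ± 0.17 in SCL1 (adjusted p = 0.0850) and 0.55 ± 0.16 in PRE5 (adjusted p = 0.0999).

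The genes varied together over the arrays. The median Pearson r over the 595 pairs of the 35 genes was 0.56, against 0.04 over all pairs of genes with a mean log2 over 8, and the pairs ran from -0.66 to 0.97. These correlations are descriptions over 13 arrays, which share strains and array scaling. Each gene was set against the mean of the other 34. RPN4 followed that mean most closely (r = 0.96), then RPN5, a lid scaffold (0.96), PRE8 (0.92) and PRE4 (0.90), and 29 of the 35 had an r over 0.5. Lowest were PRE7 (-0.17), RPT6 (-0.03), PUP3 (0.22) and RPN6 (0.27). Among these, PRE7, RPT6 and RPN6 had negative values in ΔtR(CCU)J and positive ones in ΔtL(GAG)G. PRE3 had the same signs, at -0.05 and 0.19, with an r of 0.38. Within a subcomplex the median r was 0.65 among the RPT ATPases, 0.63 in the alpha ring, 0.59 among the RPN subunits and 0.34 in the beta ring.

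The non-member genes whose 13 values followed the mean of the 35 most closely were PHB2, which encodes a mitochondrial prohibitin (r = 0.97), BXI1 (0.97), the trehalose synthesis gene TPS1 (0.94), the kinase gene YAK1 (0.94), the mitochondrial chaperone gene MDJ1 (0.93), the thiol peroxidase gene DOT5 (0.93), CAP1, which encodes a subunit of the actin capping protein (0.93), and the acyltransferase gene GPT2 (0.93). They were chosen by this likeness, so their SC minus MC differences of 0.40 to 0.97 are given without a test.

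Genes around the proteasome were described by 3 further lists. Of 13 assembly factors and partners, 10 were positive in the SC minus MC comparison (median 0.10, against 65.5% positive and a median of 0.11 over all genes) and 0 were called. In ΔtR(CCU)J 4 of the 13 were called higher, where 6.63% of all genes were. ECM29, which encodes an adaptor that tethers core to base, was at 9.86 and 10.05 in ΔtR(CCU)J, against 8.72, 8.13 and 9.03 in WT (1.33 ± 0.32, adjusted p = 0.0385). BLM10, the gene of an alternative activator of the core, was at 10.40 and 10.44, against 9.95, 9.32 and 9.66 in WT (0.78 ± 0.18, adjusted p = 0.0348). TMA17, a base assembly chaperone gene, was at 8.25 and 7.98, against 7.22, 7.36 and 7.46 in WT (0.77 ± 0.16, adjusted p = 0.0258), and UBP6, the gene of a deubiquitinase that sits on the proteasome, at 10.90 and 10.88, against 10.31, 10.18 and 10.09 in WT (0.70 ± 0.11, adjusted p = 0.0133). For these 4 genes both ΔtR(CCU)J arrays lay above all WT arrays.

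Of the 31 genes of the ubiquitin system, 28 were positive in the SC minus MC comparison (65.5% of all genes), with a median of 0.34, against 0.11 over all genes, and 1 was called higher (0.165% of all genes). SHP1, a cofactor gene of the Cdc48 segregase, had SC arrays between 10.51 and 10.95 and MC arrays between 10.23 and 10.42 (0.49 ± 0.08, adjusted p = 0.0446). In ΔtR(CCU)J 6 of the 31 were called higher, where 6.63% of all genes were: SHP1 (0.50 ± 0.11), the ubiquitin ligase genes UBR1 (0.95 ± 0.23), UBR2 (1.13 ± 0.22), UFD4 (0.57 ± 0.15) and HUL5 (0.93 ± 0.22), and the deubiquitinase gene DOA4 (0.66 ± 0.14). Ubr2 is the ligase known to mark Rpn4 itself for degradation, and UBR2 read 8.90 and 8.57 in ΔtR(CCU)J, against 7.73, 7.26 and 7.85 in WT. The shuttle factor gene DDI1 had a difference of 0.56 ± 0.21 in this strain (adjusted p = 0.112).

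HSF1, YAP1, PDR1 and PDR3 encode transcription factors known to act on the RPN4 promoter. All 4 were positive in the SC minus MC comparison, where 65.5% of all genes were, with a median of 0.45, against 0.11 over all genes, and 0 were called. In ΔtR(CCU)J HSF1 and YAP1 were called higher, 2 of 4 genes where 6.63% of all genes were. YAP1, the oxidative stress regulator, was at 9.20 and 9.26 in ΔtR(CCU)J, against 8.48, 7.96 and 8.59 in WT (0.89 ± 0.18, adjusted p = 0.0252). HSF1, the heat shock factor, was at 8.84 and 8.90, against 8.28, 8.12 and 8.40 in WT (0.60 ± 0.14, adjusted p = 0.0374). PDR1 and PDR3, regulators of drug resistance, had differences of 0.66 ± 0.25 (adjusted p = 0.109) and 0.47 ± 0.23 (adjusted p = 0.190).

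The scaling of the arrays set how large these differences were. With each array centred on its median gene, the SC minus MC median of the 35 genes was 0.08 and 25 were positive, while the genes as bright had a median of -0.16 and all genes one of -0.04. With quantile normalization the median was 0.25 and all 35 were positive, while the genes as bright had a median of -0.02 and all genes one of 0.00. In ΔtR(CCU)J the median of the 35 genes was 0.14 after centring, against -0.23 over the genes as bright, and 0.43 after quantile normalization, against 0.00. The calls in ΔtR(CCU)J followed the scaling. After centring 0 of the 35 were called higher and PRE7 was called lower, and after quantile normalization 9 were called higher. The calls over all genes under these scalings are not given here. The changes are therefore not read as particular to the proteasome genes. Under each scaling the 35 genes had a higher median than the genes as bright in SC minus MC and in each SC strain. In each MC strain their median was the lower one. Against all genes, the ΔtM(CAU) median of the 35 was lower as deposited (0.05 against 0.07) and after centring (-0.04 against -0.02). After quantile normalization it was higher (0.05 against 0.00).

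**Figure D5:**
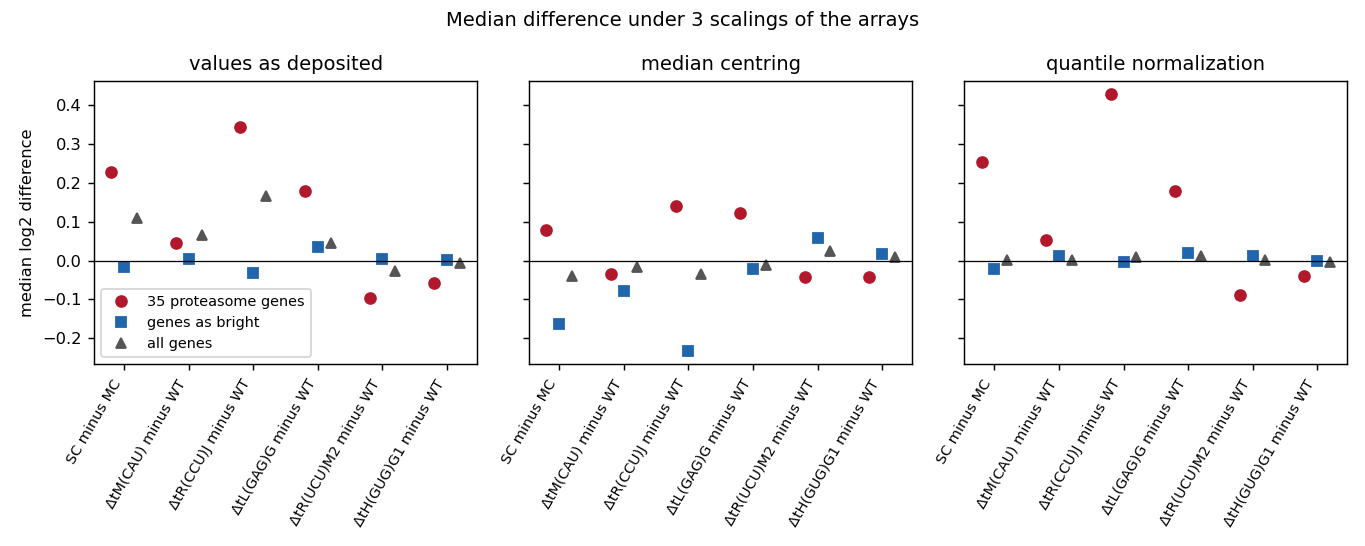
The median log2 difference of the 35 proteasome genes, of the 1224 other genes of the same brightness and of all 5446 genes in 6 comparisons, with the values as deposited, after median centring and after quantile normalization. In the SC minus MC comparison the 35 genes are at 0.23, 0.08 and 0.25 and the genes as bright at -0.02, -0.16 and -0.02.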

How the data were processed

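The authors extracted total RNA and hybridised labelled cRNA to the arrays. By their methods the background was adjusted with RMA and the arrays were normalized to each other, while the sample descriptions name GCRMA; versions are not given in the sources used here. The deposited values are linear intensities, 1 per probe set, whose medians differ between arrays; log2 was taken with no offset. The platform annotation gives a single protein-coding gene for 5495 of the 10928 probe sets, which makes 5446 genes; for 47 genes with several probe sets the brightest was used. With limma 3.58.1 in R 4.3.3, 1 model of all 13 arrays had 1 mean per strain, and a gene was called at an adjusted p (Benjamini-Hochberg, all genes) under 0.05. The p-values set a difference against the spread between arrays of the same strain, and the number of arrays limits the precision. They do not cover differences among the strains of a group. The fit was tested on simulated data. Members and lists were chosen with earlier results of these data known.

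The text names RPN4, UMP1, every called member, 2 members with the smallest and 1 with the largest p per subcomplex for SC minus MC, called or leading genes of each further list, and the 8 genes most like the members' mean. Other genes were named after their values were seen. Deviations of arrays with the same number correlated in all 10 pairs of deletion strains (r from 0.12 to 0.67). With WT the r ranged from -0.74 to 0.54 and differed by group. For number 1 it was 0.44 to 0.54 in the SC strains and -0.27 and -0.06 in the MC strains. For number 2 it was 0.05 to 0.13 in the SC strains and -0.74 and -0.56 in the MC strains. The numbers were taken to pair the deletion strains only, and whether arrays shared a batch was not tested. The study compared each strain with WT of its own batch, but the labels name no batch. Alternatives were the replicate block, scaling, offset, filter, prior, probe set mean, arrays in the fit, and leaving out arrays or strains.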

Additional observations from a re-analysis of the deposited data

Results flagged for a closer look

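In groups of 4 to 10 arrays, a value that stood apart from the others by Dixon's criterion was looked for. There were 70 groups (35 genes in the SC and in the MC arrays), and 3 such values were found. The cutoff of 1 in 20 holds for independent groups of like values. The 35 genes varied together, so the count is not compared with chance. All 3 values were the second ΔtR(CCU)J array as the highest of the SC arrays. PUP3 read 12.01 there against a next value of 11.72 (gap over range 0.828), RPN13 read 11.57 against 11.24 (0.765), and SEM1 read 11.91 against 11.49 (0.650). None of these 3 genes is among those called in that strain. The SC arrays hold 3 strains, so a strain difference also appears as a gap.

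For 4 of the 35 genes all 6 SC arrays lay above the mean of the WT arrays and all 4 MC arrays below it, as for 69 (1.27%) of all genes. The SC minus MC differences were 0.23 for PRE8, 0.30 for PRE2, 0.34 for RPN7 and 0.42 for RPN10, and none of them passed the test of the difference (adjusted p = 0.117, 0.0673, 0.0616 and 0.0615).

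RPN12 was 0.52 higher in ΔtR(CCU)J than in ΔtL(GAG)G by the test of that difference itself (adjusted p = 0.0474, from 0.0215 to 0.265 over 21 alternatives and 0.0639 with the replicate block, where the call was lost), a comparison chosen after the values had been seen.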

How the results depend on the processing

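Under median centring the SC minus MC median was 0.0782, the ΔtM(CAU) median -0.0358, the SC minus WT median 0.0672, and the ΔtR(CCU)J median 0.14 with 0 genes called higher and 1 (PRE7) lower; ΔtR(CCU)J minus ΔtL(GAG)G then had a median of 0.0108 with 0 called higher and 2 (PRE7 and RPN6) lower. Quantile normalization called 1 gene in SC minus MC (RPN12), 9 in ΔtR(CCU)J (median 0.43) and 2 in ΔtR(CCU)J minus ΔtL(GAG)G (median 0.25). SC minus MC called 5 genes with dim genes left out, 4 with an offset of 16, 8 with a trended and robust prior, 11 (median 0.31) without strain ΔtM(CAU) and 3 without strain ΔtL(GAG)G. In SC minus MC the count over all genes moved with them, at 12 as reported and 35 with quantile normalization. Under the last 5 settings it was 223, 165, 354, 575 and 194. For the other comparisons the counts over all genes under the alternatives, here and below, are not given. Their calls are therefore not read as particular to the 35 genes. The trended prior also called 8 genes in ΔtR(CCU)J, 1 lower in ΔtR(CCU)J minus ΔtL(GAG)G and 2 in the test over all strains. With only the arrays compared in the fit, 0 were called in ΔtR(CCU)J and 0 in ΔtR(CCU)J minus ΔtL(GAG)G, where fewer arrays estimate the spread. The cause of the other changes was not tested.

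Leaving out 1 array at a time, SC minus MC called 0 to 6 genes: 6 without ΔtH(GUG)G1 replicate 2, 5 without WT replicate 2 and 1 without ΔtR(CCU)J replicate 2. ΔtR(CCU)J minus WT called 0 to 4: 0 without its replicate 1, 1 (UMP1) without its replicate 2, and 2 without WT replicate 1 or without WT replicate 2, and its median ran from 0.26 to 0.37. In these fits RPN9 stayed called only where an MC array was left out. Its call was also lost without an array of ΔtM(CAU) or ΔtL(GAG)G, which lie outside that comparison. ΔtR(CCU)J minus ΔtL(GAG)G called 0 without any 1 array, and its median ran from 0.0839 to 0.19, with 0.0841 without ΔtR(CCU)J replicate 2 and 0.0839 without ΔtL(GAG)G replicate 2.

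With the replicate block, SC minus MC called 0 of the 35 genes (57 of all genes) at a median of 0.23, ΔtR(CCU)J minus WT called 5 (median 0.34), and ΔtR(CCU)J minus ΔtL(GAG)G called 0. The 5 genes were PRE5, RPT1, RPN12, UMP1 and RPN4, while the RPN9 call was lost (adjusted p = 0.0670 in the blocked fit). The block changed no other count of called proteasome genes. The numbers were not taken to pair WT with the deletion strains, so the blocked values against WT are not read as a paired test. WT replicate 3, alone under its number, has no weight in the blocked WT comparisons, whose differences equal those without it. Within the arrays numbered 1 the SC minus MC median was 0.23 (33 positive), and within those numbered 2 it was 0.27 (34 positive), with 0 called in each. No call reported for the 35 genes changed its sign; values near 0 did, such as the ΔtM(CAU) median and PUP3 in SC minus MC. The count of promoters with the PACE element was not run, since no promoter sequences were used here.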
